A study of Mus musculus with 18 samples.

Results

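Chemokine ligands are the small secreted or membrane-held proteins that set the direction of leukocyte migration. Their genes were followed here through 5 cell populations sorted from mouse muscle and from mouse tumors. The members were all genes whose array symbol began with Ccl, Cxcl, Cx3cl or Xcl followed by a number, which gave 34 of the 22180 genes with a probe set of their own. This naming rule used no measured value, but it was chosen with earlier results of these data known. Ccl27a, the 1 member with more than 1 probe set, was read from its brightest. A further 7 chemokine genes lay only on probe sets shared with other genes and were not analysed here.

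In all animals the Fabp4 (aP2) promoter drove Cre (aP2-Cre), and a tdTomato allele gave a red reporter once Cre had acted, so Tom+ cells were cells marked by past or present Cre activity. The tumors also carried 1 copy of SmoM2 (SmoM2/+), an activated form of the Hedgehog signal transducer Smoothened. They came from BJ;SJL;B6.129 animals and gave 3 populations of 4 arrays each: Tom+/Pecam1+ (marked Pecam1+ tumor cells), Tom+/Pecam1- (marked Pecam1- tumor cells) and Tom-/Pecam1- (unmarked tumor cells). Animals were 48 days old for repeats 1 to 3, and 38 days old for repeat 4. Normal sternocleidomastoid muscle came from B6;SJL animals at day 21 and gave 2 populations of 3 arrays each, Tom+ (marked muscle cells) and Tom- (unmarked muscle cells), which were not divided by Pecam1. The label of 1 marked muscle sample writes tdTomato without the /+ that the others carry. Tumor and muscle therefore differed in tissue, age, strain and SmoM2 at once, and these cannot be told apart. The labels do not say whether a repeat was 1 animal or a pool, so p-values measure only the spread between these samples.

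The array signals were log2 intensities. A difference of 1 is a 2-fold change within a gene, and levels of different genes are not set against each other. Marker genes were set against the sort gates. Of 12 endothelial marker genes, 12 exceeded the 60th percentile of their own array on every array of marked Pecam1+ tumor cells and 12 did so in marked muscle cells. Their mean level was 10.62 to 11.25 in the marked Pecam1+ tumor cells and 10.54 to 10.69 in marked muscle cells, against 6.09 to 7.42 in the other populations. Unmarked tumor cells carried markers of several cell types together: 10 of 10 pan-leukocyte, 11 of 11 fibroblast and 10 of 10 pericyte and smooth muscle markers lay above that percentile there. So did 6 of 8 tenocyte and 6 of 8 muscle cell markers. The mix was not particular to them. In both marked Pecam1- tumor cells and unmarked muscle cells, 9 of 10 pan-leukocyte and 11 of 11 fibroblast markers lay above it. In a bulk sorted sample, fewer cells of a type and less RNA per cell cannot be told apart. Tumor array medians lay 0.34 above muscle medians, so tumor was set against muscle after centring each array on its median. In the deposited tumor values the mean over the 3 populations was the same for all 4 repeats of each gene (within 7.67e-05). A low value in 1 tumor population was therefore matched by higher values in the other populations of that repeat by mean.

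Chemokines bind G-protein-coupled receptors on leukocytes and are held on the glycosaminoglycans of vessel walls and matrix. Homeostatic members such as Cxcl12 are made steadily by stromal and endothelial cells, whereas inflammatory members such as Ccl2, Ccl3 and Cxcl2 are induced through NF-kappaB, and Cxcl9 and Cxcl10 through interferon. In muscle, injury and inflammation are known to bring monocytes and neutrophils in through Ccl2 and the Cxcr2 ligands.

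The promoters of 5 members, picked after their values were seen, are shown because these genes had unlike patterns over the populations. Cxcl2, Cxcl1 and Cxcl10 were highest in unmarked tumor cells, and Cxcl12 was highest in marked Pecam1+ tumor cells and marked muscle cells. Cxcl9 exceeded the 60th percentile on every array of each population except unmarked muscle. By deposited mean Cxcl9 too was highest in unmarked tumor cells, but after centring it was highest in marked muscle cells. Each window is RefSeq sequence of GRCm38.p6, 250 bases before to 50 after the gene's start, read 5′ to 3′ on the gene's strand. Capitals mark the letters of the kappaB consensus or of a core of the interferon-stimulated response element (GAAA, any 2 bases, GAAA), each searched on both strands. The windows are chr5:90903649-90903948 (+ strand, Cxcl2), chr5:90890995-90891294 (+ strand, Cxcl1), chr5:92348840-92349139 (- strand, Cxcl10), chr6:117168285-117168584 (+ strand, Cxcl12) and chr5:92328030-92328329 (- strand, Cxcl9).
Cxcl2: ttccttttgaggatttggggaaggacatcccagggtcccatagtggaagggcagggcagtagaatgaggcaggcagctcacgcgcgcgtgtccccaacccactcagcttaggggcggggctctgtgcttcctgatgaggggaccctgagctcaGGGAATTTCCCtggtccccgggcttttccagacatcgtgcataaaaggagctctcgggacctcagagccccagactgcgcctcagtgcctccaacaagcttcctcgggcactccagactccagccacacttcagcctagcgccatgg
Cxcl1: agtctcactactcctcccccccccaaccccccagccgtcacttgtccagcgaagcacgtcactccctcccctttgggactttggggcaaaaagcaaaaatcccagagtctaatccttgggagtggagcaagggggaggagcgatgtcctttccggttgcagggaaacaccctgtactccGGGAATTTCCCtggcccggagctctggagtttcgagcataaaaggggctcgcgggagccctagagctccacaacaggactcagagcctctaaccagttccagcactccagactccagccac
Cxcl10: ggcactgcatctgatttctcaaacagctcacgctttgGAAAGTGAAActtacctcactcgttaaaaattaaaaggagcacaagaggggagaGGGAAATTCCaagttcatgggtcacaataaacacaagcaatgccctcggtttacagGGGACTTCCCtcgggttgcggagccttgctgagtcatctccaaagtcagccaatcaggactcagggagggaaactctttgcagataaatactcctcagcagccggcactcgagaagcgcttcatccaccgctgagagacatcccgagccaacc
Cxcl12: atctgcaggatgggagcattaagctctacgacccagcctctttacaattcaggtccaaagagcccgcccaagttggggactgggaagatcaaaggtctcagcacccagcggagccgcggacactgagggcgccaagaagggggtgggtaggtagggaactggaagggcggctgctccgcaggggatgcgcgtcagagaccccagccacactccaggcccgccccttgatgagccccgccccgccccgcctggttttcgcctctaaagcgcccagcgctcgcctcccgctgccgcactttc
Cxcl9: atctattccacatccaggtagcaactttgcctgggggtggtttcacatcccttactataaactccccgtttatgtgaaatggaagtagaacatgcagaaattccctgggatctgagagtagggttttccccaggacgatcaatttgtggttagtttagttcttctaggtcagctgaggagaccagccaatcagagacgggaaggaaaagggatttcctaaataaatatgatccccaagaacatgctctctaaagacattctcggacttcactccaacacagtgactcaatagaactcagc
Cxcl2 and Cxcl1 each held 2 overlapping kappaB matches at 1 place, and Cxcl10 held 2 kappaB matches apart and 1 interferon-element match. Neither set of letters was in the Cxcl12 and Cxcl9 windows. A kappaB match was in 7 of the 26 windows of the 23 members found in RefSeq's promoter table (26.9%), against 4.51% of 32851 windows of all genes. The interferon element was in 2 of the 26 (7.69%), against 3.44% of all windows. These are letter matches and not measured binding. The matches did not follow 1 pattern over the populations. By deposited mean, Ccl1, Ccl3, Ccl6, Ccl8, Ccl12, Ccl17, Ccl22, Cxcl13 and Xcl1 were also highest in unmarked tumor cells but held no kappaB match. Ccl9 and Cxcl3 were highest there and held a match. Ccl20, and Ccl27a in 1 of its windows, held a match but were highest in other populations.

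By the rule below, the most members were counted in unmarked tumor cells. The sets counted in marked Pecam1+ tumor cells and marked muscle cells differed only in Ccl4 and Ccl5. A member was counted where it exceeded the 60th percentile of its array on every array of a population. That is a rank and not a call of presence. Of the 34 members, 10 were counted in marked Pecam1+ tumor cells, 18 in marked Pecam1- tumor cells and 21 in unmarked tumor cells. In muscle, 10 were counted in marked cells and 13 in unmarked cells. The share of all genes that met this rule was not computed, so these counts have no background beside them. Counted in all 5 populations were 6 members: Cxcl12, Cxcl16, Cxcl1, Cxcl2, Ccl2 and Ccl11. In no population were 11 counted. Of these, Ccl1, Ccl26, Cxcl15, Cxcl3 and Cxcl5 also failed the filter on dim genes, Ccl20, Ccl25, Ccl28 and Cxcl11 stayed under the percentile on nearly every array, and Ccl22 and Xcl1 exceeded it on 3 of 4 arrays of unmarked tumor cells. The mean was highest in unmarked tumor cells for 21 members as deposited and for 18 after centring. It was highest in unmarked muscle cells for 0 members on either scale.

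**Figure D1:**
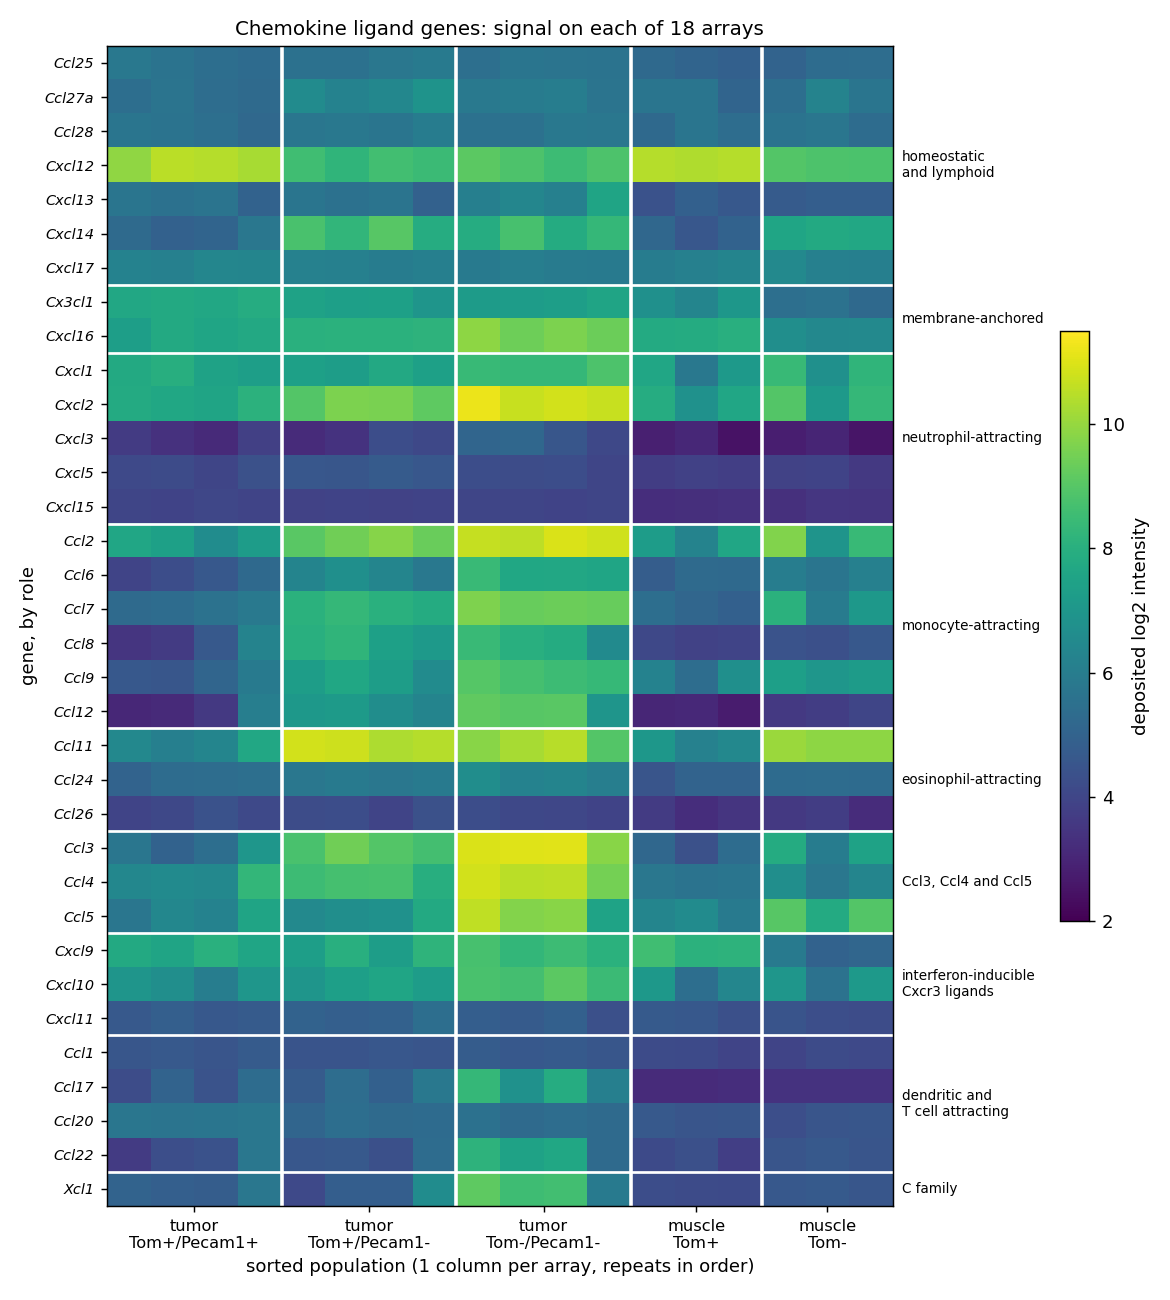
Deposited log2 intensity (colour) of the 34 chemokine ligand genes on each of the 18 arrays, genes grouped by role and arrays by sorted population. Cxcl12 is brightest in the marked Pecam1+ tumor cells and marked muscle cells, Ccl11 and Cxcl14 are dimmest there, and the monocyte-attracting genes and Ccl3, Ccl4 and Ccl5 are brightest in unmarked tumor cells.

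In muscle, the marked cells were set against the unmarked cells, which asks which chemokine signals differed between these sorted populations in normal tissue. Marked muscle cells had more of 4 ligands (Cxcl9, Cxcl12, Cxcl16 and Cx3cl1) and less of 9, among them the eosinophil attractant Ccl11, the fibroblast-made Cxcl14 and the leukocyte-made Ccl3 and Ccl5. Across all genes limma's moderated test called 39.7% of 16011 at an adjusted p under 0.05, 19.1% higher and 20.5% lower. Among the 29 members tested, 4 were higher and 9 lower, a share close to that of all genes. The median member difference was -0.47, against 0 over all genes tested.

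Cxcl9, an interferon-gamma-induced attractant of Cxcr3-bearing T cells, had signals of 8.58, 8.09 and 8.15 in marked muscle cells, against 5.89, 4.98 and 5.12 in unmarked muscle cells. The groups were far apart, and the difference was 2.95 ± 0.26 (SE, adjusted p = 8.44e-08), a 7.71-fold higher signal. Cxcl12, the ligand of Cxcr4 that keeps blood cell progenitors in their niche, measured 10.44, 10.35 and 10.45 in marked muscle cells, against 8.94, 8.84 and 8.81 in unmarked ones (difference 1.55 ± 0.16, adjusted p = 3.46e-07). Its replicates were nearly level within each population.

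Both membrane-anchored ligands were higher in marked muscle cells. Cxcl16, which tethers Cxcr6-bearing lymphocytes and also takes up oxidised lipoprotein, measured 7.79, 7.84 and 8.01 in marked muscle cells, against 6.70, 6.42 and 6.47 in unmarked ones (1.35 ± 0.14, adjusted p = 3.28e-07). Cx3cl1, or fractalkine, which holds Cx3cr1-bearing monocytes on endothelium, measured 6.76, 6.33 and 7.04 in marked muscle cells, against 5.47, 5.57 and 5.25 in unmarked ones (1.28 ± 0.17, adjusted p = 7.31e-06). In neither gene did the groups overlap.

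Ccl11, or eotaxin-1, the Ccr3 ligand that draws eosinophils, went the other way, with 7.02, 6.16 and 6.42 in marked muscle cells, against 10.08, 9.87 and 9.89 in unmarked muscle cells. That was 10.6-fold lower (-3.41 ± 0.38, adjusted p = 1.04e-06). Cxcl14, a ligand that stromal and epithelial cells make constitutively, measured 5.17, 4.57 and 5.0 in marked muscle cells, against 7.58, 7.76 and 7.69 in unmarked ones, 6.79-fold lower (-2.76 ± 0.28, adjusted p = 3.86e-07). Every marked array lay below every unmarked array for both genes.

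Ccl5 and Ccl3 fell less evenly. Ccl5, or RANTES, which T and NK cells release, measured 6.32, 6.57 and 5.86 in marked muscle cells, against 9.03, 7.80 and 8.95 in unmarked ones (-2.34 ± 0.61, adjusted p = 0.00507). Ccl3, a Ccr1 ligand of activated macrophages, measured 5.16, 4.34 and 5.34 in marked muscle cells, against 7.83, 5.99 and 7.47 in unmarked ones (-2.15 ± 0.50, adjusted p = 0.00213). Repeat 2 was the lowest unmarked array for both. Ccl2 (-1.30), Ccl6 (-0.86), Ccl7 (-1.87), Ccl9 (-1.07) and Ccl24 (-0.48) were also lower in marked muscle cells, Ccl2 with overlapping groups.

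Several measured features moved with these differences in muscle. All 12 endothelial markers were higher in marked muscle cells, and 10 of 11 fibroblast markers and 7 of 10 pan-leukocyte markers were lower. The pan-leukocyte level was 5.41 to 5.78 in marked muscle cells, against 6.64 to 7.0 in unmarked ones. Beside Cxcl9, 11 of 12 interferon-induced genes were higher in marked muscle cells, Ifit1 (2.50) and Irf7 (1.76) among them. The list level was 7.31 to 7.61 there, against 5.81 to 6.15 in unmarked ones. The other interferon-inducible Cxcr3 ligands did not pass: Cxcl10 differed by -0.27 (adjusted p = 0.632) and Cxcl11 by 0.23 (0.288). The part of these features in the chemokine differences was not tested.

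Muscle repeats shared part of their variation. Repeat 2 was the lowest marked muscle array for 15 of the 29 tested members, beside 32.7% of all genes tested. Among unmarked muscle arrays it was also the lowest for 15, beside 30.9% of all genes. Members lowest in repeat 2 of both populations included Ccl2, Cxcl1, Cxcl2 and Cxcl10, and also Ccl11, Ccl8, Ccl9 and Cxcl9. The level of 17 dissociation stress genes was lowest in repeat 2 as well (8.57, against 9.77 and 10.39 in the other marked arrays, and 9.20, against 10.12 and 10.22 in the other unmarked arrays). With the repeat as a block, 32.4% of all genes were called, the Cxcr2 ligands Cxcl1 (-0.96, adjusted p = 0.00258, against 0.0665 without the block) and Cxcl2 (-0.69, 0.0372 against 0.138) passed, while Ccl6 (0.081) and Ccl24 (0.0571) no longer did. Salivary gland genes differed between the repeats too: 6 of the 18 measured exceeded their repeat 3 level by more than 1 in the mean of repeats 1 and 2, and did so in both muscle populations. With repeat 3 alone, and its spread assumed to be that of the other groups, 8 members were called in place of 13, and Ccl5 (-3.09, adjusted p = 0.0763) and Ccl3 (-2.13, 0.0737) did not pass.

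**Figure D2:**
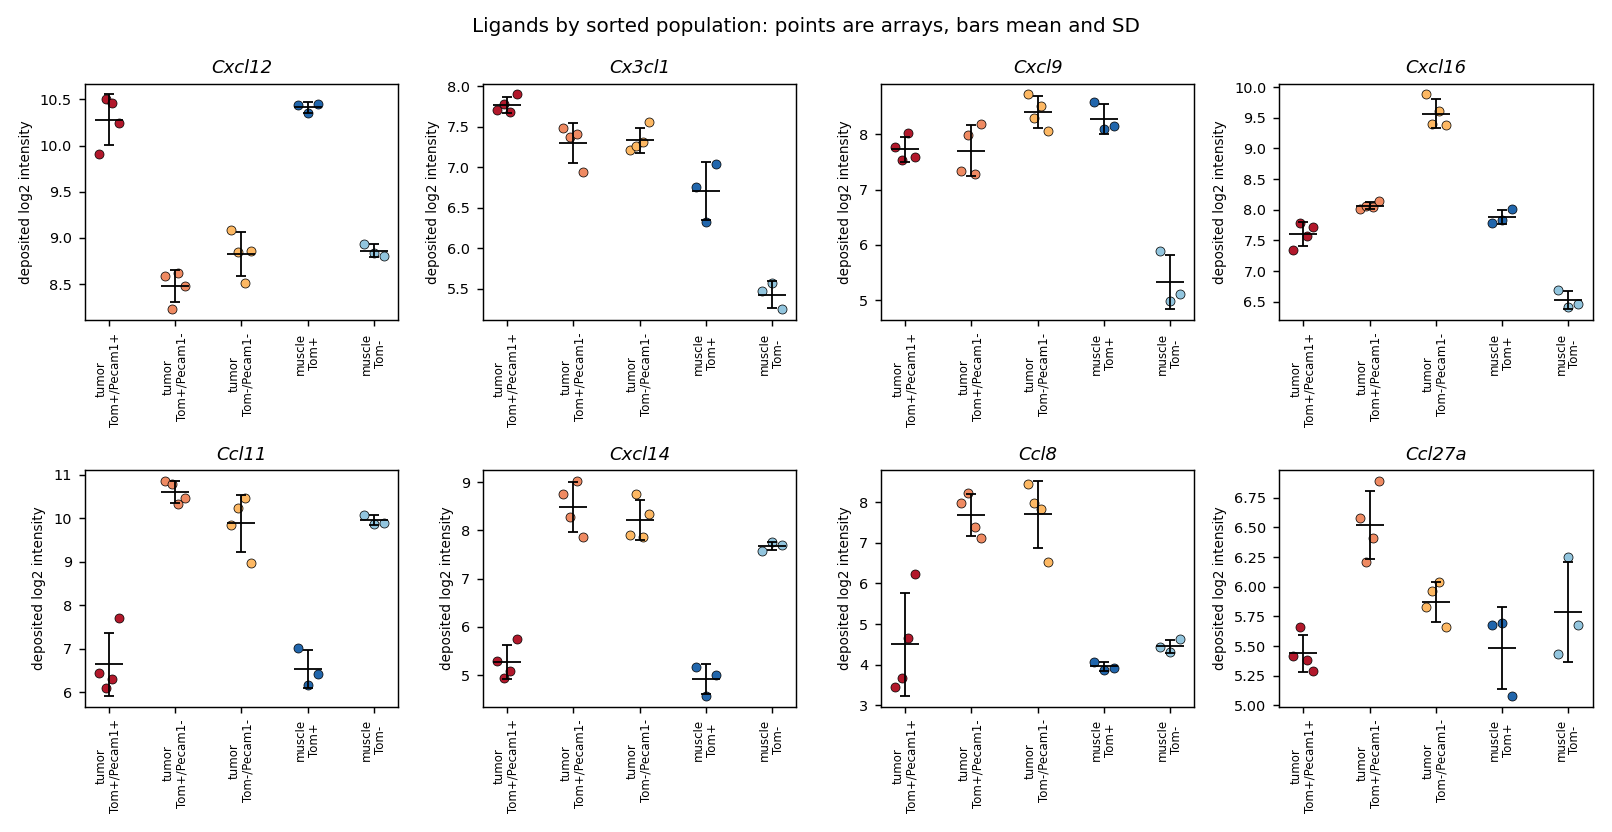
Deposited log2 intensity of 8 chemokine genes by sorted population, 1 point per array, with mean and SD (n = 4 for tumor, n = 3 for muscle); each panel has its own axis, which does not start at 0. Cxcl12 is high in the marked Pecam1+ tumor cells and marked muscle cells, Ccl11 and Cxcl14 are low in the same populations, and Ccl8 is high in both Pecam1- tumor populations.

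Among Pecam1- tumor cells, marked cells were set against unmarked cells. Of the 19 chemokines that differed, 18 were lower in the marked cells, and they came from many groups: 5 of the 6 monocyte attractants, both bright Cxcr2 ligands, Ccl3, Ccl4 and Ccl5, Cxcl9 and Cxcl10, the dendritic cell products Ccl17 and Ccl22, and the lymphocyte product Xcl1. Over all genes 25.4% were called, 13.4% higher and 12% lower. Of the 29 members tested, 1 was higher and 18 were lower, and the median member difference was -1.08, against 0.03 over all genes. With the repeat as a block the share of all genes called was 16.8%, with 1 member higher and 16 lower: the calls of Ccl12 (adjusted p = 0.0887) and Cxcl9 (0.0563) were lost. Because the deposited tumor values already have equal repeat means, the fit without the block counts degrees of freedom that those values no longer have. The same holds for tumor against muscle below, where the block was not run.

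Ccl17, the Ccr4 ligand made by dendritic cells, measured 4.71, 5.38, 4.90 and 5.79 in marked Pecam1- tumor cells, against 8.32, 6.80, 7.89 and 6.09 in unmarked tumor cells (-2.08 ± 0.38, adjusted p = 0.00069). Ccl4, a close relative of Ccl3, measured 8.52, 8.69, 8.75 and 7.96 in marked Pecam1- cells, against 10.86, 10.53, 10.56 and 9.53 in unmarked ones (-1.89 ± 0.36, adjusted p = 0.0011). Ccl3 measured 8.76, 9.44, 8.96 and 8.65 in marked Pecam1- cells, against 10.96, 11.05, 11.06 and 9.81 in unmarked ones (-1.77 ± 0.43, adjusted p = 0.00598). In all of these the groups did not overlap, and the day 38 array was the lowest of the unmarked arrays.

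Ccl6, a Ccr1 ligand of mouse macrophages, measured 6.28, 6.72, 6.33 and 5.80 in marked Pecam1- tumor cells, against 8.42, 7.67, 7.70 and 7.58 in unmarked tumor cells (-1.56 ± 0.26, adjusted p = 0.000311). Larger differences with overlapping groups were those of Xcl1, the Xcr1 ligand (-2.96 ± 0.56), Ccl5 (-2.48 ± 0.53), Ccl22 (-2.41 ± 0.49) and Ccl12 (-1.77 ± 0.55). In each the overlap came from repeat 4: Xcl1, chosen as the example after its values were seen, measured 4.11, 4.85, 4.84 and 6.62 in marked Pecam1- cells, against 9.15, 8.54, 8.64 and 5.91 in unmarked cells. The neutrophil attractant Cxcl2 measured 8.95, 9.61, 9.59 and 9.16 in marked Pecam1- cells, against 11.22, 10.71, 10.84 and 10.72 in unmarked ones (-1.55 ± 0.31, adjusted p = 0.00143).

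Ccl27a, a Ccr10 ligand best known from skin, was the 1 member higher in marked Pecam1- tumor cells, at 6.58, 6.21, 6.41 and 6.89, against 5.83, 5.96, 6.04 and 5.66 in unmarked ones (0.65 ± 0.18, adjusted p = 0.0141). All 4 marked arrays lay above the unmarked ones, but the call rested on the choice of probe set and on repeat 4. The mean of its probe sets gave 0.27 (adjusted p = 0.115), leaving out marked Pecam1- repeat 4 gave 0.53 (0.0522), and leaving out all tumor arrays of repeat 4 gave 0.46 (0.11). Ccl11, Ccl8 and Cxcl14 were bright in both populations and did not pass the test: Ccl11 differed by 0.72 ± 0.33, Ccl8 by -0.02 ± 0.48 and Cxcl14 by 0.27 ± 0.24.

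Leukocyte marker signals differed in the same direction. All 10 pan-leukocyte markers, 13 of 14 macrophage and monocyte markers, 8 of 8 tested neutrophil markers and 9 of 10 tested lymphocyte markers were lower in marked Pecam1- tumor cells. The pan-leukocyte level was 6.87 to 7.26 there, against 8.37 to 9.62 in unmarked tumor cells, and Ptprc, which encodes CD45, had a mean of 7.60 in the marked Pecam1- cells, against 9.96. The macrophage level in the marked Pecam1- cells, 7.66 to 7.97, was above that of both muscle populations (6.08 to 6.82). Of 12 NF-kappaB feedback and target genes, 10 were lower in the marked Pecam1- cells, led by Il1b (-3.64) and Tnfaip3 (-1.85). Markers of other cell types differed too: 7 of 8 muscle cell markers were higher in the marked Pecam1- cells, and 6 of 8 tenocyte markers were lower. The muscle cell level was 8.77 to 9.18 in the marked Pecam1- cells, against 6.93 to 8.0 in unmarked tumor cells. The part of these features was not tested.

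**Figure D3:**
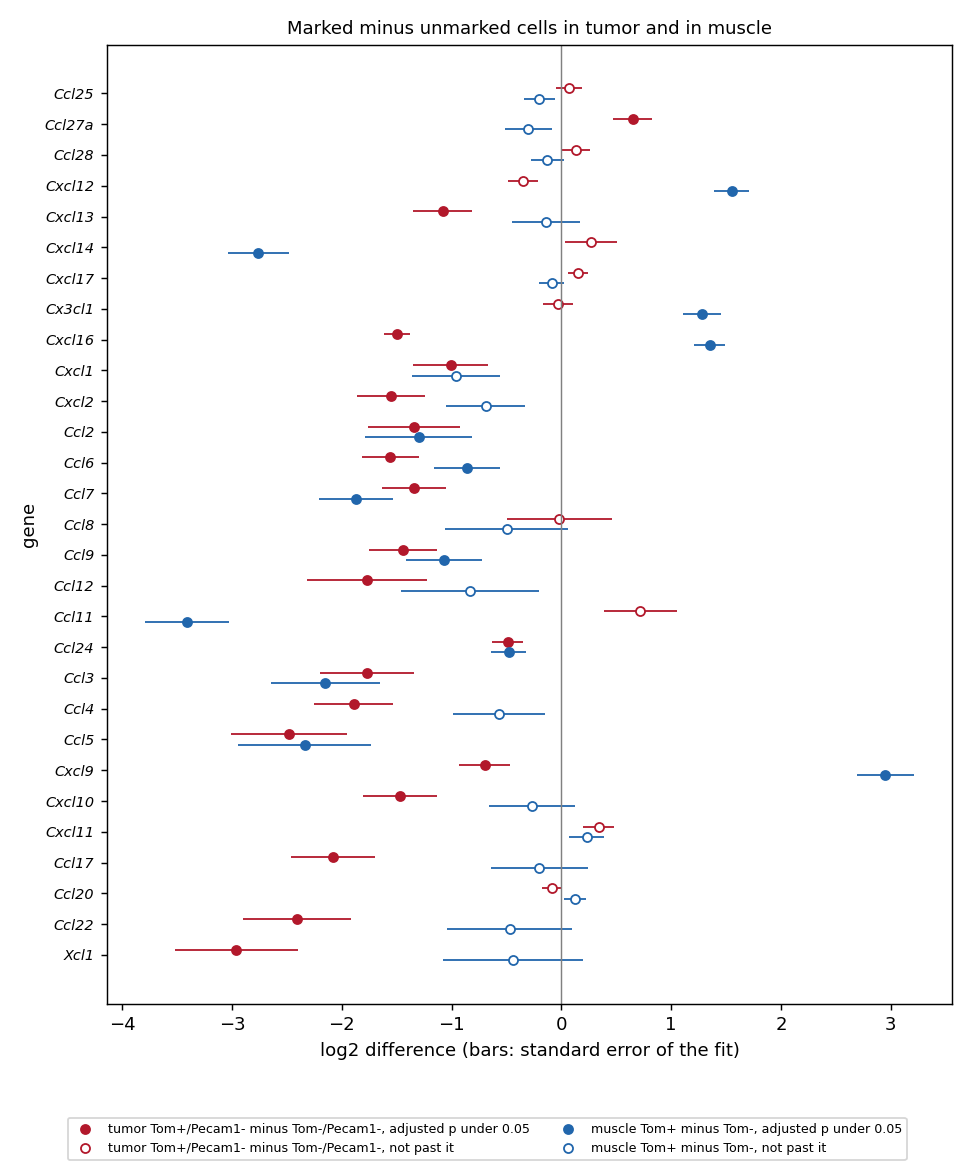
Log2 difference between marked and unmarked cells with its standard error for the 29 tested chemokine genes, among Pecam1- tumor cells (red) and in muscle (blue); filled points passed an adjusted p of 0.05. Cxcl16, Cxcl9, Cxcl12 and Cx3cl1 lie right of 0 in muscle, Ccl11 and Cxcl14 lie left of 0 in muscle and right of it in tumor, and most tumor points lie left of 0.

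Marked Pecam1+ tumor cells were then set against both Pecam1- populations. They had more Cxcl12 than either, slightly more Cx3cl1 and Ccl20, and less of 14 chemokines than marked Pecam1- cells and of 20 than unmarked cells. Against the marked Pecam1- cells, 44.6% of all genes were called (21% higher, 23.6% lower), and among tested members 3 were higher and 14 lower. Against the unmarked cells, 41.7% of all genes were called (20.5% higher, 21.2% lower), and 4 members were higher and 20 lower. The median member difference was -0.47 against marked Pecam1- cells and -2.53 against unmarked cells, beside 0.01 and 0.02 over all genes. Both comparisons use the same Pecam1+ arrays.

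Cxcl12 measured 9.91, 10.51, 10.46 and 10.25 in marked Pecam1+ tumor cells, against 8.59, 8.23, 8.62 and 8.48 in marked Pecam1- cells and 9.09, 8.85, 8.51 and 8.86 in unmarked cells. It was 3.48-fold higher than in marked Pecam1- cells (1.80 ± 0.14, adjusted p = 6.65e-09) and 2.74-fold higher than in unmarked cells (1.45 ± 0.14, adjusted p = 1.17e-07). No Pecam1+ array came near either of the other populations.

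Cx3cl1 measured 7.71, 7.78, 7.68 and 7.90 in Pecam1+ cells, against 7.49, 7.37, 7.41 and 6.94 in marked Pecam1- cells and 7.21, 7.26, 7.31 and 7.56 in unmarked cells. The differences of 0.47 ± 0.14 (adjusted p = 0.0148) and 0.43 ± 0.14 (0.0229) were small, and both calls were lost with the repeat block (0.0512 and 0.0707), under which 36.3% of all genes were called against marked Pecam1- cells and 34% against unmarked cells. The first was 0.30 (adjusted p = 0.109) without repeat 4 of the tumors and had an adjusted p of 0.0602 without marked Pecam1- repeat 4 alone, and that of the second was 0.061 without Pecam1+ repeat 4, 0.0618 without unmarked repeat 1 and 0.0563 without unmarked repeat 2. Ccl20, the Ccr6 ligand that draws dendritic cells and Th17 cells, stayed at 5.67 to 5.77 in Pecam1+ cells, against 5.09 to 5.44 in marked Pecam1- cells (0.43 ± 0.09, adjusted p = 0.000806) and 5.28 to 5.55 in unmarked cells (0.34 ± 0.09, 0.0058). It was below the 60th percentile of every array. Cxcl17, known from mucosal tissue, measured 6.23, 6.13, 6.36 and 6.31 in Pecam1+ cells, against 5.90, 6.05, 5.96 and 5.90 in unmarked cells (0.30 ± 0.09, adjusted p = 0.0149, 0.0655 with the block and 0.079 without repeat 4).

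Among the genes lower in Pecam1+ cells, Ccl11 and Cxcl14 were low against both other tumor populations: Ccl11 measured 6.45, 6.10, 6.31 and 7.70 in Pecam1+ cells, against 10.84, 10.78, 10.33 and 10.45 in marked Pecam1- cells and 9.83, 10.24, 10.47 and 8.97 in unmarked cells. It was 15.5-fold lower than in marked Pecam1- cells (-3.96 ± 0.33, adjusted p = 2.12e-08) and 9.42-fold lower than in unmarked cells (-3.24 ± 0.33, adjusted p = 3.08e-07). Cxcl14 measured 5.30, 4.95, 5.08 and 5.75 in Pecam1+ cells, against 8.76, 8.27, 9.02 and 7.87 in marked Pecam1- cells and 7.90, 8.75, 7.86 and 8.34 in unmarked cells. It was 9.26-fold lower than in marked Pecam1- cells (-3.21 ± 0.24, adjusted p = 7.44e-09). Ccl8, which in mouse is known as a Ccr8 ligand, had the same form, with 3.46, 3.66, 4.65 and 6.24 in Pecam1+ cells, against 7.98, 8.23, 7.39 and 7.11 in marked Pecam1- cells (-3.17 ± 0.48, adjusted p = 3.47e-05). Its signal was dim in Pecam1+ cells, above the 40th percentile on 1 of the 4 arrays.

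Ccl3, Ccl12, Ccl7 and Ccl9 were lowest in Pecam1+ cells, intermediate in marked Pecam1- cells and highest in unmarked cells. Ccl3 measured 5.74, 4.98, 5.44 and 7.0 in Pecam1+ cells, which was 8.96-fold below marked Pecam1- cells (-3.16 ± 0.43, adjusted p = 1.04e-05) and 30.5-fold below unmarked cells (-4.93 ± 0.43, adjusted p = 5.31e-08). Ccl12, a mouse Ccr2 ligand of monocytes, measured 3.06, 3.12, 3.59 and 6.05 in Pecam1+ cells, against 9.17, 9.02, 9.06 and 6.96 in unmarked cells (-4.60 ± 0.55, adjusted p = 2.47e-06). Only 1 of the 4 Pecam1+ arrays put Ccl12 above the 40th percentile, so the size of this difference rests on a dim signal there. The groups did not overlap, and they were closest at day 38.

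Ccl7, a monocyte attractant whose gene lies beside Ccl2, measured 5.27, 5.35, 5.57 and 5.85 in Pecam1+ cells, against 9.66, 9.29, 9.38 and 9.28 in unmarked cells (-3.89 ± 0.29, adjusted p = 7.36e-09). Ccl9, a Ccr1 ligand of myeloid cells, measured 4.61, 4.53, 5.10 and 5.93 in Pecam1+ cells, against 8.99, 8.71, 8.51 and 8.38 in unmarked cells (-3.61 ± 0.31, adjusted p = 3.48e-08). Cxcl1 was an exception among inflammatory members: it measured 7.77, 7.96, 7.49 and 7.34 in Pecam1+ cells, against 8.41, 8.33, 8.33 and 8.83 in unmarked cells, and passed with the block (-0.83, adjusted p = 0.00239) but not without it (0.0621). Against marked Pecam1- cells Cxcl1 differed by 0.18 ± 0.34 and Cxcl9 by 0.03.

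**Figure D4:**
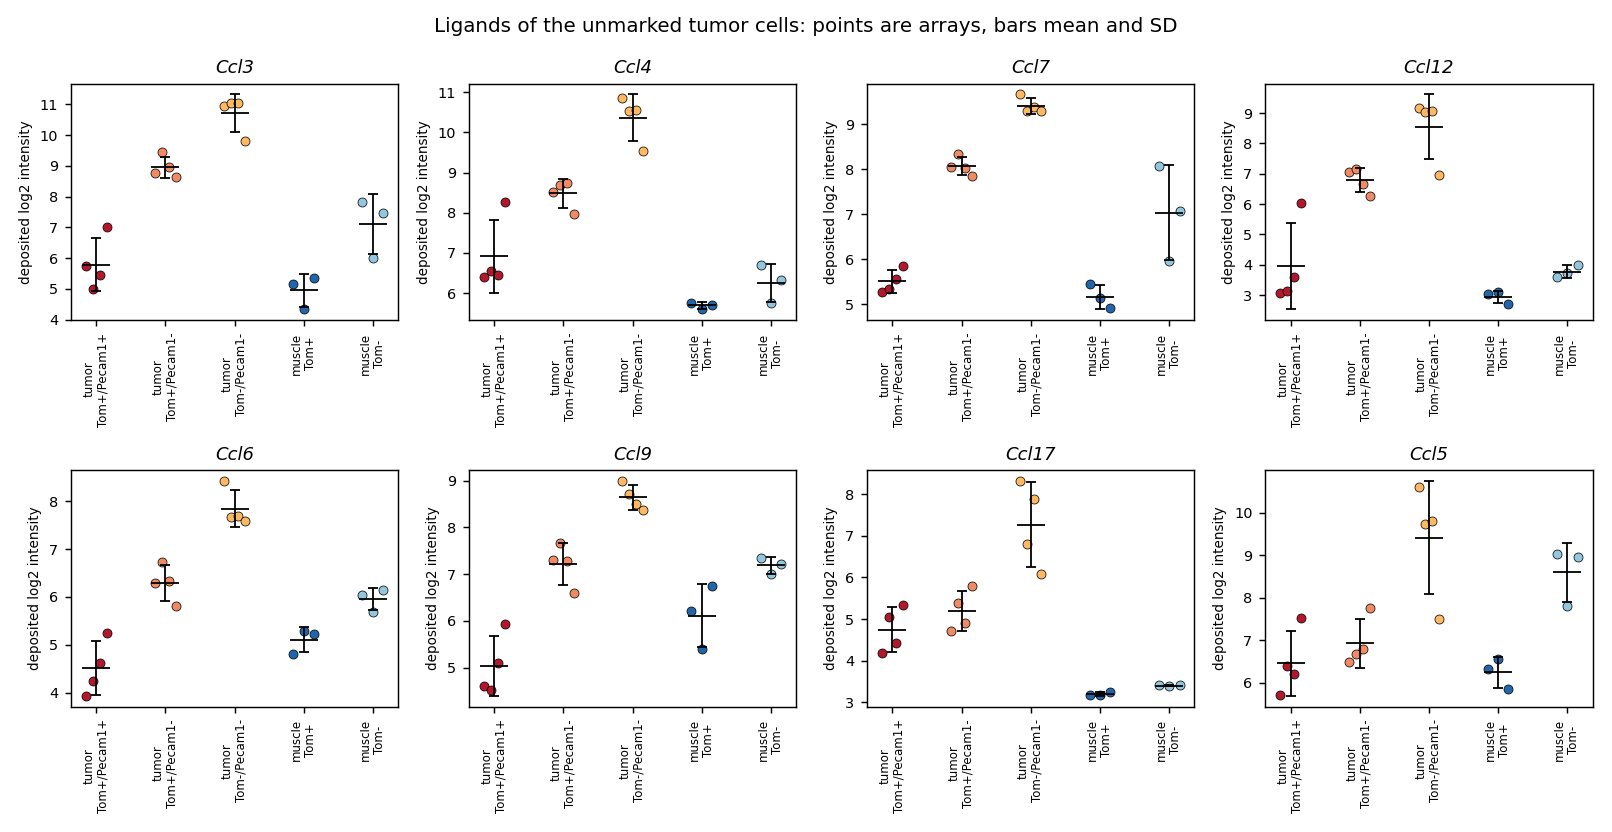
Deposited log2 intensity of 8 chemokine genes by sorted population, 1 point per array in repeat order from left to right, with mean and SD (n = 4 for tumor, n = 3 for muscle); each panel has its own axis, which does not start at 0. By mean, unmarked tumor cells are the brightest population in each panel, and the rightmost tumor point, day 38, is often low in unmarked cells and high in marked Pecam1+ cells.

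The day 38 repeat had a recurring place. Repeat 4 was the highest of the Pecam1+ arrays for 18 of the 29 tested members (32.5% of all genes tested) and the lowest of the unmarked tumor arrays for 18 (32.6% of all genes). The pan-leukocyte level of repeat 4 was 6.81 in Pecam1+ cells, beside 5.54 to 5.85 in their other repeats, and 8.37 in unmarked cells, beside 9.17 to 9.62 in their other repeats. Because repeat means were equal over the tumor populations, the high and low values are not independent, and with 1 array per population age and repeat cannot be told apart. Without repeat 4, 23 members were called between Pecam1+ and unmarked tumor cells, 3 of them higher, all 23 of them also called with it.

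Between Pecam1+ and marked Pecam1- cells, all 12 endothelial markers were higher in the Pecam1+ cells, and 9 of 11 fibroblast and 12 of 14 macrophage markers were lower. The interferon-induced list was also higher in the Pecam1+ cells, for 10 of 12 genes, at 7.24 to 7.52 against 6.41 to 6.51, beside a Cxcl9 level that differed little and a Cxcl10 difference of -0.63. The part of these features in the chemokine values was not tested.

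Tumor was set against muscle between the populations with the closest sorting gates. Unmarked tumor cells had more of 19 chemokines than unmarked muscle cells, Ccl3 and Ccl4 among them, together with members of the monocyte, dendritic and interferon-inducible groups, while Ccl5, Cxcl1, Ccl11 and Cxcl14, bright in both, did not pass. Over all genes 48.7% were called, 23.8% higher and 24.9% lower in tumor. Of the 29 members tested, 19 were higher and 2 lower. The median member difference was 1.55, against -0.02 over all genes. Values per array are as deposited, and differences are after centring.

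Beside the unmarked tumor values above, Ccl12 measured 3.58, 3.74 and 3.99 in unmarked muscle cells, below the 40th percentile of those arrays, so the size of its difference, 4.45 ± 0.59 (adjusted p = 1.23e-05), rests on a dim signal in muscle. Ccl4 measured 6.69, 5.75 and 6.33 in unmarked muscle cells, so that it was 13.7-fold higher in unmarked tumor cells (3.78 ± 0.39, adjusted p = 8.67e-07). Ccl17 measured 3.41, 3.38 and 3.40 in unmarked muscle cells, also below that percentile, and was higher in tumor (3.54 ± 0.40, adjusted p = 2.51e-06). Ccl3 was 9.75-fold higher in tumor (3.29 ± 0.47, adjusted p = 2.53e-05). In each, every tumor array exceeded every muscle array.

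Cxcl16 (2.70 ± 0.13), Cxcl9 (2.73 ± 0.24) and Cx3cl1 (1.56 ± 0.16) were higher in unmarked tumor cells too. Cxcl16 measured 9.88, 9.39, 9.61 and 9.38 in unmarked tumor cells, against the 6.42 to 6.70 of unmarked muscle cells. Lower in tumor were Cxcl17 (-0.61 ± 0.10, adjusted p = 0.000138), which measured 6.46, 6.12 and 6.10 in unmarked muscle cells, and Cxcl12 (-0.37 ± 0.15, adjusted p = 0.0435). The Cxcl12 call depended on the setting: its difference was -0.03 on deposited values (adjusted p = 0.857), and leaving out any unmarked muscle array, or unmarked tumor repeat 2, 3 or 4, gave an adjusted p of 0.0579 to 0.137. Beside these differences, 10 of 10 pan-leukocyte, 13 of 14 macrophage and 8 of 8 neutrophil markers were higher in unmarked tumor cells, and 10 of 12 endothelial markers were lower; their part was not tested.

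Marked Pecam1+ tumor cells and marked muscle cells, both rich in endothelial markers, differed in fewer chemokines. Ccl17, Ccl20 and Cx3cl1 were higher in tumor, and Cxcl9, Cxcl16, Cxcl12, Ccl6 and Ccl9 were lower. Over all genes 34.2% were called, 15.7% higher and 18.5% lower, beside 3 members higher and 5 lower of the 29 tested, no larger a share, and the median member difference was 0.00, against -0.03 over all genes. On deposited values the split was 7 higher and 1 lower, so the directions in this comparison depend on the centring.

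Ccl20 measured 4.66, 4.52 and 4.55 in marked muscle cells, below its 5.67 to 5.77 in Pecam1+ tumor cells (0.79 ± 0.10, adjusted p = 1.39e-05). Cx3cl1 rose by 0.70 ± 0.16 (adjusted p = 0.00272, but 0.34 and 0.261 with muscle repeat 3 alone). Ccl17 measured 4.19, 5.04, 4.42 and 5.34 in Pecam1+ tumor cells, against 3.17, 3.17 and 3.25 in marked muscle cells (1.20 ± 0.40, adjusted p = 0.0299). It was below the 40th percentile of every marked muscle array and above it on 2 of the 4 Pecam1+ arrays. This difference therefore rests on dim signals. The Ccl17 call was lost without Pecam1+ repeat 2 or 4, or without any marked muscle array (adjusted p 0.063 to 0.0786).

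Cxcl9 measured 7.77, 7.53, 8.03 and 7.59 in Pecam1+ tumor cells, below its 8.09 to 8.58 in marked muscle cells (-0.90 ± 0.24, adjusted p = 0.00913; -0.55 and 0.0726 on deposited values). Cxcl16 measured 7.34, 7.78, 7.58 and 7.72 in Pecam1+ tumor cells, below the 7.79 to 8.01 of marked muscle (-0.63 ± 0.13, adjusted p = 0.00116; -0.28 and 0.079 on deposited values). Cxcl12 differed by -0.49 ± 0.15 (adjusted p = 0.016), by -0.13 on deposited values (0.47), and its call was lost without Pecam1+ repeat 1 (0.0517) or marked muscle repeat 3 (0.0581). Beside Cxcl9, 7 of the 12 interferon-induced genes were lower in Pecam1+ tumor cells after centring and 1 was higher, with Isg15 at -1.36. The other interferon-inducible Cxcr3 ligands did not pass: Cxcl10 differed by 0.03 and Cxcl11 by -0.18. The part of the interferon-induced list was not tested.

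**Figure D5:**
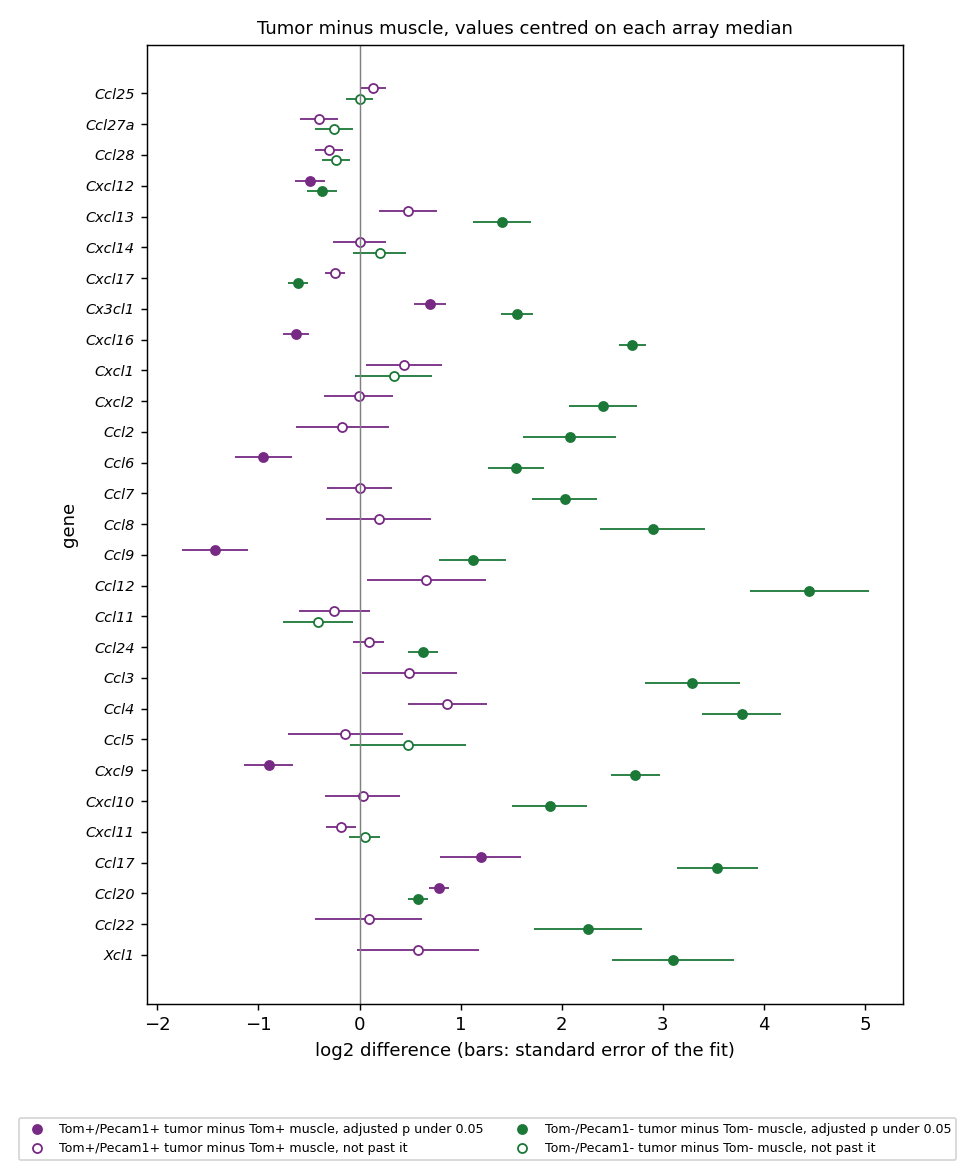
Log2 difference between tumor and muscle, on values centred on each array's median, with its standard error for the 29 tested chemokine genes, for marked Pecam1+ tumor against marked muscle cells (purple) and unmarked tumor against unmarked muscle cells (green); filled points passed an adjusted p of 0.05. Most green points lie right of 0, up to 4.45 for Ccl12, while purple points lie on both sides.

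Whether the mark made the same difference in both tissues was tested as the marked minus unmarked difference in Pecam1- tumor cells minus that in muscle. The gates were not the same, since muscle cells were not divided by Pecam1. Over all genes 39.5% were called, 20.9% higher and 18.5% lower; among the 29 tested members 3 were higher and 7 lower, a share close to that of all genes. Ccl11 had a marked minus unmarked difference of 0.72 in tumor and -3.41 in muscle, so the mark differences were 4.13 ± 0.50 apart (adjusted p = 4.05e-06). Cxcl14 had 0.27 in tumor and -2.76 in muscle (3.03 ± 0.37 apart, adjusted p = 4.95e-06), and Ccl27a 0.65 and -0.30 (0.95 ± 0.28, adjusted p = 0.0117, but 0.114 with the mean of its probe sets). The ligands that rose in marked muscle cells did not do so in marked Pecam1- tumor cells. Cxcl9 differed by -0.70 in tumor and 2.95 in muscle (-3.64 ± 0.35 apart, adjusted p = 2.87e-07), and Cxcl16 by -1.50 and 1.35 (-2.85 ± 0.18, adjusted p = 2.44e-09). Cxcl12 differed by -0.35 in tumor and 1.55 in muscle (-1.90 ± 0.21 apart, adjusted p = 1.27e-06), and Cx3cl1 by -0.03 and 1.28 (-1.31 ± 0.22, adjusted p = 0.000139). Ccl17 differed by -2.08 in tumor and -0.20 in muscle (-1.88 ± 0.58 apart, adjusted p = 0.0153). With the repeat block, which called 31% of all genes, the calls of Ccl17 (adjusted p = 0.0562), Ccl22 (-1.94, 0.121) and Xcl1 (-2.52, 0.0807) were lost, and Cxcl10 passed (-1.20, 0.0246).

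The receptors for these ligands were set against the same populations. Of 14 receptor genes tested, 9 were lower in marked Pecam1- than in unmarked tumor cells and 0 were higher, beside 25.4% of all genes called. Between Pecam1+ and unmarked tumor cells, 10 were lower and 1 higher in Pecam1+ cells, beside 41.7% of all genes. With the repeat block, 9 were lower and 0 higher in each comparison, beside 16.8% and 34% of all genes. Ccr2, the receptor of Ccl2, Ccl7 and Ccl12, was lower in Pecam1+ than in unmarked tumor cells (-3.62, adjusted p = 1.19e-06), and so was Cxcr2, the receptor of Cxcl1 and Cxcl2 (-2.56, 1.92e-06). Cxcr4, the receptor of Cxcl12, was bright in all populations, with means of 8.97 in marked Pecam1+ tumor cells, 9.27 in marked Pecam1- tumor cells, 9.62 in unmarked tumor cells, 8.63 in marked muscle cells and 8.96 in unmarked muscle cells. Cxcr3, the receptor of Cxcl9 and Cxcl10, was below the 60th percentile of every array.

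The atypical receptors, which bind chemokines without signalling for migration, were divided: of 5 tested, 3 were higher and 2 lower in Pecam1+ than in unmarked tumor cells. With the repeat block 2 were higher and 2 lower. Ackr1, which carries chemokines across venular endothelium, was 4.25 higher in Pecam1+ than in marked Pecam1- tumor cells (adjusted p = 3.49e-10), 3.67 higher than in unmarked tumor cells and 1.65 higher than in marked muscle cells (0.000257). Ackr3, a scavenger of Cxcl12, was 0.86 higher in Pecam1+ than in marked Pecam1- tumor cells. Ccrl2, which holds the attractant chemerin on cell surfaces, was lower in marked Pecam1- than in unmarked tumor cells (-1.98) and higher in unmarked tumor than in unmarked muscle cells (2.44).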

How the data were processed

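Per the labels, cells were freed from muscle or tumor with collagenase B and Dispase II, sorted by FACS, and their RNA was amplified and hybridised, 1 array per sorted sample. The deposited values are log2 intensities of 41345 probe sets on 18 arrays. Per the submitters' processing notes, they were made with RMA and Partek; the array build is not given in the sources used here. Probe sets with 1 symbol were kept, and a gene took its brightest probe set. Genes entered the tests when 3 or more arrays put them above those arrays' 40th percentile; 16011 genes did, among them 29 of the 34 members. All 18 arrays entered 1 fit in limma 3.58.1 (R 4.3.3), with Benjamini-Hochberg adjustment over all genes, two-sided, and a threshold of 0.05; it was tested on simulated data. Values on every array are given for at most the 4 largest and 4 smallest differences of each comparison among members that passed and whose groups did not overlap, and for a few members that a sentence singles out after their values were seen (Cxcl1, Cxcl2 and Xcl1). Members and lists were chosen with earlier results of these data known.

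Repeat numbers paired the muscle samples: same-numbered arrays deviated together (r 0.24 to 0.26, others -0.16 to -0.09). In tumor the deposited repeat means were equal, which makes that check void. The repeat as a block within each tissue was an alternative, as were normalization, centring, filters, variance model, probe set rule, thresholds and arrays left out. Depth does not apply to arrays, and their number limits the precision. Promoter sequences are from RefSeq's table for GRCm38.p6; all 34 members matched a RefSeq gene and 23 had a promoter window.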

Additional observations from a re-analysis of the deposited data

Results flagged for a closer look

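In 54 groups of 4 tumor arrays, 4 held an array whose gap to its nearest neighbour was over 0.829 of the group's range, a limit that chance passes in about 1 in 20 groups. The signal of Ccl4 was highest in marked Pecam1+ tumor cells at day 38, at 8.28. In unmarked tumor cells, Ccl12 was lowest at day 38 (6.96), Ccl3 was lowest at day 38 (9.81), and Ccl6 was highest in repeat 1 (8.42). Groups of 3 muscle arrays were not examined in this way.

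The marked minus unmarked difference of 10 members was not the same in Pecam1- tumor cells and in muscle by limma's test of the difference itself. Of these, 8 had non-overlapping groups and were among the most changed members in one or both of the marked against unmarked comparisons, and the others were Ccl22 (-1.94) and Xcl1 (-2.52). Among the 8, tumor minus muscle was positive for Ccl11 (4.13), Cxcl14 (3.03) and Ccl27a (0.95), and negative for Cxcl9 (-3.64), Cxcl16 (-2.85), Cxcl12 (-1.90), Ccl17 (-1.88) and Cx3cl1 (-1.31). Muscle cells were not divided by Pecam1, so the gate and the tissue cannot be told apart in these values.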

How the results depend on the processing

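None of the named members' called differences changed sign under the alternatives run, but the split of calls between marked Pecam1+ tumor and marked muscle cells, 3 higher and 5 lower, became 7 higher and 1 lower on deposited values, with 4 members called under both. Of the alternative values of the named members, 900 kept their side of the threshold and 65 did not pass it, and those lost to single arrays, the centring, the block or the probe set rule stand beside their results. The count of members called between marked Pecam1+ tumor and marked muscle cells was 5 at an adjusted p of 0.01, 2 with at least a 2-fold change and 4 with muscle repeat 3 alone, in place of 8. The test of the mark between tissues called 6 at 0.01 in place of 10, and muscle repeat 3 alone gave 8 in muscle in place of 13. Levels above the 75th percentile numbered 45 of the member and population pairs, against 72 above the 60th. Leaving out 1 array at a time gave 10 to 15 members called in muscle, 14 to 18 for marked against unmarked Pecam1- tumor cells, 16 to 18 for Pecam1+ against marked Pecam1- tumor cells, 22 to 24 for Pecam1+ against unmarked tumor cells, 6 to 9 for marked tumor against marked muscle cells, 20 to 21 for unmarked tumor against unmarked muscle cells, and 8 to 11 for the test between tissues. With the replicate block the counts were 13, 17, 16, 23 and, between tissues, 8; calls it changed are given with their comparison. The cause of these changes was not tested, except that stricter thresholds lower the counts by construction. Leaving out arrays moved the counts in both directions.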
